A study of Homo sapiens with 6 samples.

Results

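The Eph receptors, ephrins, semaphorins, plexins and neuropilins were examined in RNA-seq of LM3 cells, an established human hepatocellular carcinoma (HCC) cell line, with and without knockdown of ZNF706, a small zinc finger protein. The members were taken by gene symbol, as every row of the deposited table named as an Eph receptor (EPHA or EPHB), an ephrin (EFNA or EFNB), a semaphorin of classes 3 to 7 (SEMA3 to SEMA7), a plexin (PLXNA to PLXND) or a neuropilin (NRP). This gave 52 of the 33007 genes of the table, namely 13 Eph receptors, 8 ephrins, 20 semaphorins, 9 plexins and 2 neuropilins, and EPHA8 was not analysed here. Both groups are labelled WT for genotype, liver for tissue and HCC for cell type. The control group consisted of 3 LM3 samples labelled as control, which the study calls vector control cells. The knockdown group consisted of 3 LM3 samples of a stable line made with a lentiviral shRNA against ZNF706. The labels do not say which of the study's shRNAs was sequenced, so its off-target effects and the loss of ZNF706 cannot be told apart, and a single cell line was used. Nothing says that the 3 samples of a group were separate cultures, so the p-values below measure only the spread between these samples, which may be technical. The comparison asks which genes differ in level when ZNF706 is reduced.

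Ephrins are membrane-bound ligands, tethered by a lipid anchor in the A class and by a transmembrane segment in the B class, and they activate Eph receptor tyrosine kinases on neighbouring cells at points of contact. Semaphorins are secreted or membrane-bound ligands that act through plexins, whose cytoplasmic part switches off small GTPases of the Ras and Rap type, and secreted class 3 semaphorins mostly need a neuropilin as co-receptor. Both systems were described first as guidance cues for growing axons, and in epithelial tissues and carcinomas they are known for roles in cell repulsion, adhesion, migration and vessel growth.

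The depth of sequencing differed little between the groups, but every knockdown library had more counts than every control. The total counts were 62684076, 64713764 and 63054445 in control replicates 1 to 3 and 68548419, 65861994 and 69057423 in knockdown replicates 1 to 3. Below, CPM is the count scaled to a common library size with trimmed mean of M-values (TMM) factors, and it is used to compare a gene between samples. These factors also separated the groups, at 0.988, 0.983 and 0.974 in the controls and 1.024, 1.019 and 1.014 in the knockdown samples. FPKM, the authors' value scaled by gene length and library size, is used to compare the levels of different genes. Where genes overlap, CPM is given for both as a measure of their reads, without scaling by length. A gene was called when the p-value of the quasi-likelihood test in edgeR, adjusted over 18390 genes by the Benjamini-Hochberg method, was below 0.05.

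ZNF706 was lower in every knockdown sample. Its level was 51.9, 55.1 and 54.7 CPM in the controls and 33.5, 30.8 and 32.8 CPM in the knockdown samples. The groups did not overlap, and the log2 fold change was -0.73 (SE 0.05, edgeR's adjusted p 3.7e-05), a level 39.9% lower, so the transcript was reduced and not abolished.

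The label of the cells was checked against marker genes. Of 12 hepatocyte lineage markers, the epithelial keratins KRT18 (271 FPKM in the control and 261 FPKM in the knockdown group) and KRT8 (193 FPKM and 200 FPKM) were by far the most abundant. The defining secretory markers were low. ALB, which encodes albumin, had a mean of 2.63 FPKM in the control and 1.71 FPKM in the knockdown group, and AFP had 0.787 FPKM and 0.507 FPKM. TTR and the hepatocyte transcription factor HNF4A were at or below 0.133 FPKM in both groups. The summed FPKM of the list was 456, 467 and 489 in the controls and 454, 469 and 471 in the knockdown samples, nearly all of it from both keratins. Of its 11 tested genes, 10 had a log2 fold change below 0, with a median of -0.70, against 0.0095 over all genes tested. None was called higher (0 of 11, beside 10.4% of all genes tested) and 2, SERPINA1 and APOB, were called lower (18.2%, beside 12.4%). APOA1 (-1.95, SE 1.09) and HNF4A (-1.15, SE 0.49) were not called. Without control replicate 3 or knockdown replicate 1, 1 marker was called lower. The APOB call was lost without control replicate 2 or 3 or knockdown replicate 1 or 3 (edgeR's adjusted p between 0.0663 and 0.0868).

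Some of these trace transcripts separated the libraries in a way that the groups did not. ALB had 189, 899 and 882 counts in control replicates 1 to 3 and 587, 635 and 138 counts in knockdown replicates 1 to 3, so that control replicate 1 and knockdown replicate 3 were lowest. The same libraries alone held reads of EPHA3, an Eph receptor, with 31 counts in control replicate 1, 56 counts in knockdown replicate 3 and 0 in the other 4 samples. COL1A2, a collagen gene, had 117 and 119 counts in those libraries and at most 8 counts in any other. Without both libraries 5 of the 12 hepatocyte lineage markers were called lower, in a fit that called 1631 of 18642 genes lower. The counts of called members are given below with and without both libraries.

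Markers of other cell types were mostly near 0, with exceptions that moved with the knockdown. Of 5 leukocyte markers in the table, CD68 (10.6 FPKM in the control and 17.1 FPKM in the knockdown group) and CSF1R (3.77 FPKM and 5.49 FPKM) were called higher, while the defining marker PTPRC had at most 8 counts in any sample, and the summed FPKM of the list was 14.8, 14.7 and 14.5 against 22.5, 23.6 and 22.7. Of 7 fibroblast markers, COL1A1 (7.05 FPKM and 8.40 FPKM) and PDGFRB were called higher, while PDGFRA had at most 29 counts, and the sums were 9.45, 7.90 and 8.33 FPKM against 9.85, 10.1 and 9.62 FPKM. Of 6 neuronal markers, SNAP25 (1.46 FPKM and 2.44 FPKM) and SYP (0.0367 FPKM and 0.14 FPKM) were called higher, and ELAVL3 had 0 counts in every sample. MAP2 (0.417 FPKM and 0.357 FPKM, log2 fold change -0.26, SE 0.18) was tested and not called. The neuronal sums were 1.93, 2.18 and 1.67 FPKM against 3.15, 3 and 2.71 FPKM. Of 7 endothelial markers, CDH5 (1.25 FPKM and 0.793 FPKM) was called lower and TIE1 had 0 counts in every sample. PECAM1 (0.667 FPKM and 0.77 FPKM, log2 fold change 0.15, SE 0.15) and CLDN5 (-2.55, SE 0.95) were tested and not called. The endothelial sums were 1.83, 1.99 and 2.18 FPKM against 1.46, 1.65 and 1.71 FPKM. The other tested fibroblast markers, LUM (-1.26, SE 0.53), COL3A1 (-2.04, SE 1.39) and DCN (-0.04, SE 0.56), had log2 fold changes below 0 and were not called by edgeR, while DESeq2 called 1 fibroblast marker lower. The markers called higher were 2 of 4 tested leukocyte, 2 of 5 fibroblast and 2 of 3 neuronal markers, beside 10.4% of all genes tested, and 1 of 3 tested endothelial markers was called lower, beside 12.4%. The medians of the log2 fold changes were 0.57 for the leukocyte, -0.04 for the fibroblast, 0.68 for the neuronal and -0.70 for the endothelial markers. The SYP call held without control replicate 1 but not without any 1 of the other 5 samples (edgeR's adjusted p between 0.0526 and 0.176). The part of these transcripts in the results below was not tested. In a bulk sample, fewer cells of a type and less RNA per cell cannot be told apart.

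The promoters of 3 members are shown because EPHA2 and SEMA4C had the lowest adjusted p among the members called lower and higher, respectively, and EFNA3 had the largest log2 fold change among the members called higher. Each has a single start site in the RefSeq promoter table (build GRCh38.p14), in which 46 of the 52 members had an entry. Each sequence runs 5′ to 3′ on the strand of the gene, from 250 bases before to 50 bases after the start site. Capitals mark matches to TGACGTCA, the palindromic cyclic AMP response element, and to the GC box, GGGCGG or CCGCCC on the opposite strand.
EPHA2, chr1:16156020-16156319, minus strand: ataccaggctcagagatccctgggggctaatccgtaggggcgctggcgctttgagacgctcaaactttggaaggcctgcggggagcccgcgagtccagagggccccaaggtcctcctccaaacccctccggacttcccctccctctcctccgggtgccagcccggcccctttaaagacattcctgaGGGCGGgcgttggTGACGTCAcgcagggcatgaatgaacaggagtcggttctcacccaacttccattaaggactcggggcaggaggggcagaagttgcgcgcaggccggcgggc
SEMA4C, chr2:96870031-96870330, minus strand: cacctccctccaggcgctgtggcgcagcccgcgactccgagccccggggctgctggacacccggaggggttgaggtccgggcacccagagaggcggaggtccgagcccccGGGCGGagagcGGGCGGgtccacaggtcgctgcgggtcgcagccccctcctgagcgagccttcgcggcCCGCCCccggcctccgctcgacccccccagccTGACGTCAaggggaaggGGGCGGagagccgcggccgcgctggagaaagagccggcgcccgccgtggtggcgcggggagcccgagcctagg
EFNA3, chr1:155078587-155078886, plus strand: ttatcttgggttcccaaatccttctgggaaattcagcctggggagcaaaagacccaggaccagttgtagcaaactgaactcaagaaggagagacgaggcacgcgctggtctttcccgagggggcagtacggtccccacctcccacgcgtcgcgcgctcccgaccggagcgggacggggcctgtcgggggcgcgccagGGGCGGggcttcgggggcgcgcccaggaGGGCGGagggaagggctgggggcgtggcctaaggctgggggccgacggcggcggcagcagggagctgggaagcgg
The EPHA2 and EFNA3 start sites coincide with the starts of these genes in the deposited table, whereas the SEMA4C start site lies 677 bases inside the deposited gene. The first bases of a GENCODE transcript of the gene were found in the EPHA2 window, but not in the SEMA4C or EFNA3 window. TGACGTCA begins at position -51 from the start site in EPHA2 and at position -40 in SEMA4C, and it is not in the EFNA3 window. This motif was chosen after the sequences were read. It was present in 649 of 35116 promoters in the whole table (1.85%) and in 3 of the 73 promoters of members, the third being 1 of the 5 SEMA3B promoters. A GC box was present in 45% of all promoters and in 54 of the 73 promoters of members. The E-box CACGTG was present in 7.26% of all promoters and in 3 of the 73 promoters of members, none of them from a called gene. These matches are descriptions of the letters in the windows.

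The 52 genes differed widely in level. Over all 6 samples, 12 members had a mean of at least 5 FPKM, 19 had at least 1 FPKM, as did 11398 of the 33007 genes of the table, and 20 had less than 0.1 FPKM. In the control group the most abundant member of each family was EFNA1 among the ephrins (28.9 FPKM ± 1.78, SD, n = 3), EPHA2 among the Eph receptors (25.6 FPKM ± 1.498), SEMA4B among the semaphorins (15.3 FPKM ± 0.591), PLXNB2 among the plexins (15.2 FPKM ± 0.123) and NRP1 among the neuropilins (1.53 FPKM ± 0.191). SEMA4B and PLXNB2 did not differ beyond their spread. In the knockdown group EPHA2 (19.1 FPKM ± 0.425) and PLXNB2 (18.1 FPKM ± 1.06) overlapped. EFNA1 encodes ephrin-A1, a high-affinity ligand of the EPHA2 receptor, so the most abundant ligand and receptor of the ephrin system in these cells are a known pair.

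**Figure D1:**
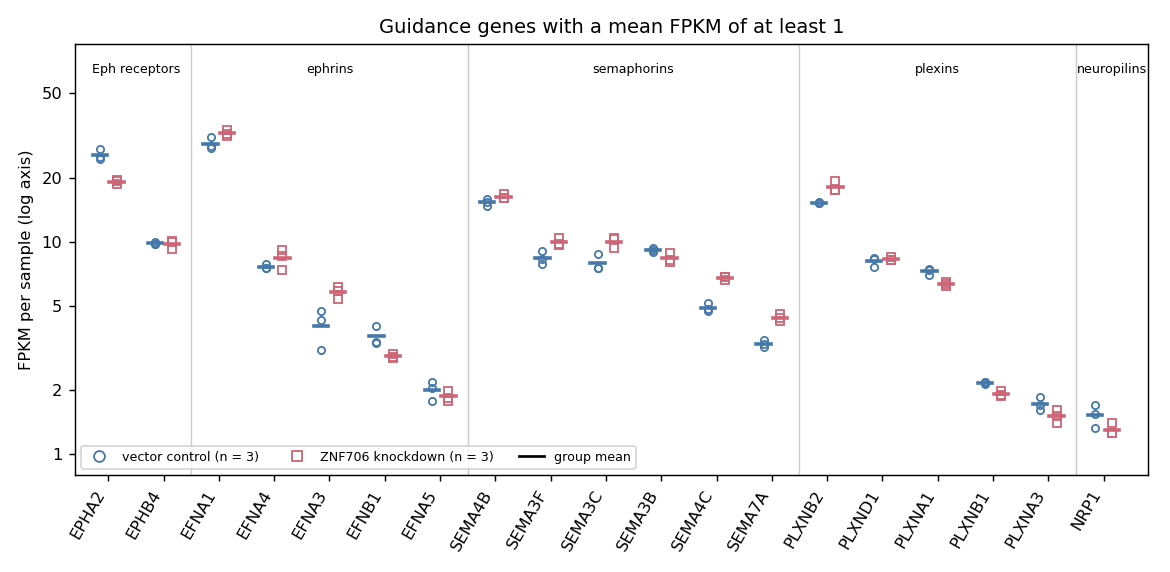
FPKM of the 19 guidance genes with a mean of at least 1 FPKM, on a log axis and grouped by family. Each circle is a control sample and each square a knockdown sample (n = 3 each), and short lines are group means. EFNA1 and EPHA2 have the highest means in both groups, and EPHA2 lies lower in all knockdown samples.

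Of the 52 members, 39 (75%, beside 55.7% of all genes) passed the filter on low counts and were tested, and the other 13 had at most 56 counts in any sample. Of the 39, 11 (28.2%) were called, beside 22.8% of all genes tested. In the knockdown group 6 members were higher, where 10.4% of all genes were called higher, and 5 members were lower, where 12.4% of all genes were called lower. With library size alone in place of TMM the split was 8 higher and 3 lower, in a fit that called 2742 of 18390 genes higher and 1518 lower. Without control replicate 1 and knockdown replicate 3 together it was 5 higher and 3 lower. When 1 sample was left out, the number of lower members was 2 without knockdown replicate 1 or 2, 3 without control replicate 1 or 2, and 4 without control replicate 3 or knockdown replicate 3, and the number of higher members was between 4 and 6. DESeq2 called 6 higher and 7 lower, adding NRP1 and PLXNA3, in a fit that called 2271 of 18390 genes higher and 2654 lower. The median log2 fold change of the tested members was -0.02, beside 0.01 for all genes, and the groups did not overlap for 15 of the 39 (38.5%), beside 39.4% of all genes. All 11 called members were among the 19 with a mean of at least 1 FPKM (57.9%), where 32.8% of all such genes were called. The median SE of the log2 fold change was 0.06 in these 19 and 0.25 in the 20 tested members below 1 FPKM, of which 0 were called by edgeR.

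**Figure D2:**
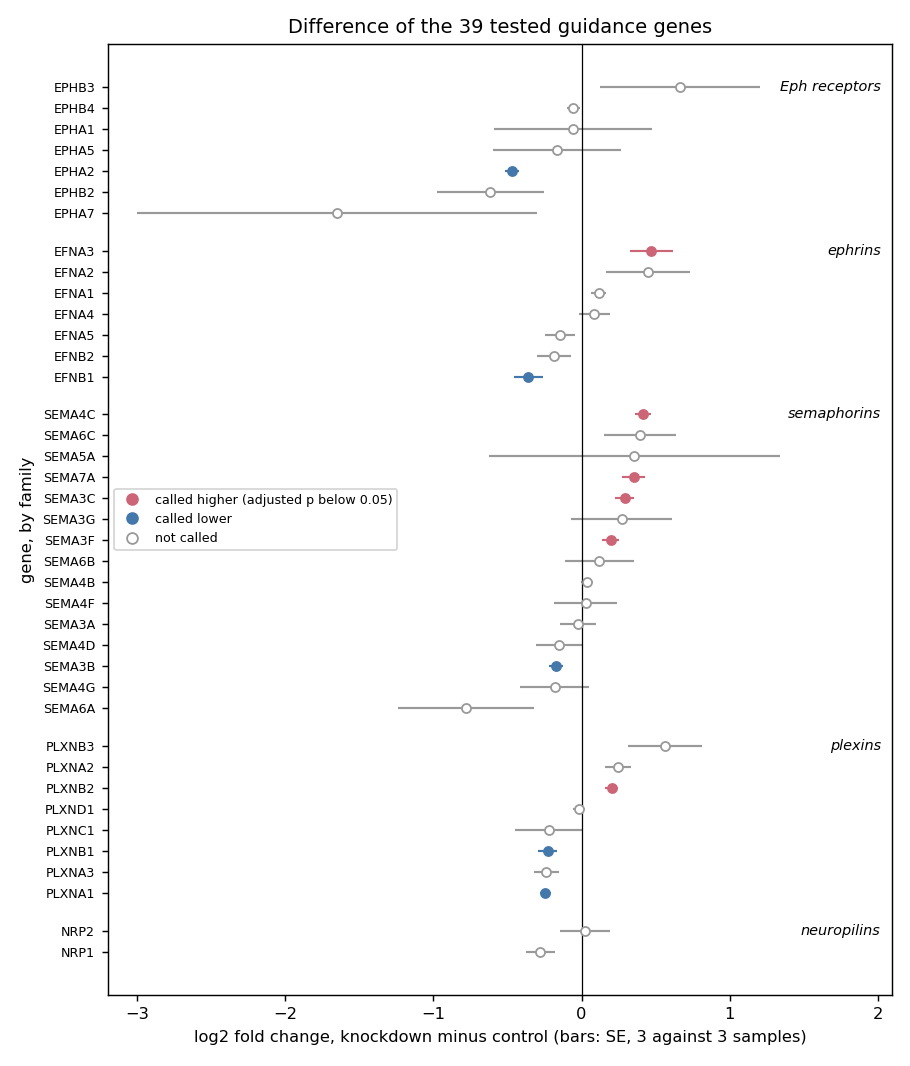
Log2 fold change (knockdown minus control) of the 39 tested guidance genes by family, with bars for the SE from edgeR over 3 samples against 3. Filled points are the 11 called genes, 6 higher in red and 5 lower in blue, and open points were not called.

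Among the Eph receptors, EPHA2 was called lower and the rest of the family was either flat or nearly silent. EPHA2 (ENSG00000142627, chr1:16124337-16156069, minus strand, GRCh38), a receptor tyrosine kinase abundant in many carcinomas, had 119, 117 and 132 CPM in the controls and 90.3, 89.0 and 86.7 CPM in the knockdown samples. All 3 knockdown samples were below all 3 control samples. The log2 fold change was -0.47 (SE 0.05, edgeR's adjusted p 0.00021), a mean level 27.9% lower, and EPHA2 stayed called in each of the 6 fits that left out 1 sample (adjusted p at most 0.0029). An antisense transcript overlaps EPHA2, but it had a mean of 0.565 CPM in the control group against 123 CPM of EPHA2, and the strand handling of the counts is not given in the sources used here.

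EPHB4, a receptor for ephrin-B2, was the only other Eph receptor with a mean above 0.1 FPKM. It had 71.9, 73.1 and 74.8 CPM in the controls and 72.3, 66.6 and 72.7 CPM in the knockdown samples. The groups overlapped, and the log2 fold change of -0.06 (SE 0.04) was not called (edgeR's adjusted p 0.42). EPHA2 made up 71.6% ± 1.00 of the summed FPKM of the 13 Eph receptors in the control group and 65.4% ± 1.37 in the knockdown group (SD, n = 3). The summed FPKM of the family was 35.3, 34.4 and 37.5 in the controls and 29.8, 28.7 and 29.1 in the knockdown samples, which did not overlap. The exact permutation test gave p = 0.1 (two-sided), the smallest value that 3 against 3 samples allow.

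The remaining 11 Eph receptors had few reads. EPHA1, EPHA5, EPHA7, EPHB2 and EPHB3 passed the filter with means of at most 0.0867 FPKM in either group and were not called. Their log2 fold changes lay between -1.65 for EPHA7 (SE 1.35) and 0.66 for EPHB3 (SE 0.54). EPHA4, a receptor studied for its wide choice of ephrins, had 0 counts in all control samples and 5, 4 and 7 counts in the knockdown samples, too few to be tested. EPHA3, EPHA6, EPHA10, EPHB1 and EPHB6 were not tested either. For EPHA1 and EPHA5 the counts could include reads of overlapping antisense genes with more reads, ZYX with 187 CPM and AC115223 with 48.1 CPM in the control group.

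Among the ephrins, EFNA3 was called higher and EFNB1 lower. EFNA3 (ENSG00000143590, chr1:155078837-155087538, plus strand), which encodes ephrin-A3, had 10.6, 9.64 and 7.05 CPM in the controls and 11.7, 13.3 and 12.9 CPM in the knockdown samples. The groups did not overlap, although control replicate 3 lay well below the other controls. The log2 fold change was 0.47 (SE 0.14, edgeR's adjusted p 0.041). A protein-coding gene, AL691442.1, overlaps EFNA3 on the same strand in GENCODE and was not analysed here, so reads from the pair cannot be told apart. EFNB1 (ENSG00000090776, chrX:68829021-68842160, plus strand), which encodes the transmembrane ligand ephrin-B1, had 15.3, 12.98 and 12.95 CPM in the controls and 10.6, 10.9 and 10.6 CPM in the knockdown samples. All knockdown samples were lower, with control replicate 1 the highest, and the log2 fold change was -0.36 (SE 0.10, edgeR's adjusted p 0.024).

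Neither ephrin call held in every fit that left out 1 sample. EFNA3 was called without control replicate 1 but not without any 1 of the other 5 samples, where edgeR's adjusted p was between 0.0575 and 0.135. EFNB1 was called without control replicate 2 or 3 but not without control replicate 1 or any 1 of the knockdown samples, where edgeR's adjusted p was between 0.0635 and 0.0814. The log2 fold change kept its sign in every one of these fits and lay between 0.32 and 0.59 for EFNA3 and between -0.40 and -0.28 for EFNB1. EFNA3 was also not called without a filter on low counts, and neither gene was called by limma on all genes with an FPKM above 0.

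EFNA1, the most abundant of all 52 members, was not called. It had 68.9, 77.8 and 71.3 CPM in the controls and 77.9, 76.4 and 81.7 CPM in the knockdown samples. The groups overlapped, and the log2 fold change was 0.11 (SE 0.05, edgeR's adjusted p 0.13). EFNA4 (7.60 FPKM in the control and 8.35 FPKM in the knockdown group) and EFNA5 (2.01 FPKM and 1.88 FPKM) overlapped between groups too. EFNA2 and EFNB2 did not overlap between groups, with log2 fold changes of 0.45 (SE 0.28) and -0.19 (SE 0.12), and neither was called. EFNB3 was not tested, with 18, 13 and 0 counts in the knockdown samples and 0 in the controls.

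The 3 neighbouring A-class ephrin genes on chromosome 1 can be compared directly. EFNA4, EFNA3 and EFNA1 lie in this order on the plus strand, with 9283 bases between EFNA4 and EFNA3 and 40337 bases between EFNA3 and EFNA1. Only EFNA3, the gene in the middle, was called among these. Whether its change differed from those of its neighbours was not tested. The summed FPKM of the 8 ephrins was 47.3, 49.1 and 45.7 in the controls and 52.2, 51.1 and 54.5 in the knockdown samples, and these did not overlap (exact permutation p = 0.1).

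Of the 20 semaphorins, 15 were tested, and SEMA3C, SEMA3F, SEMA4C and SEMA7A were called higher and SEMA3B lower. SEMA4C (ENSG00000168758, chr2:96859718-96870757, minus strand), a transmembrane ligand of plexin-B2, had 33.9, 35.1 and 37.7 CPM in the controls and 46.5, 47.8 and 47.8 CPM in the knockdown samples. The groups were far apart compared with the spread within each. The log2 fold change was 0.41 (SE 0.05, edgeR's adjusted p 0.00058), a mean level 33.3% higher.

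SEMA7A (ENSG00000138623, chr15:74409289-74433958, minus strand), a lipid-anchored semaphorin that binds plexin-C1 and integrins, had 13.9, 14.6 and 15.3 CPM in the controls and 18.0, 18.5 and 19.4 CPM in the knockdown samples. Every knockdown sample was higher, and the log2 fold change was 0.35 (SE 0.08, edgeR's adjusted p 0.010). SEMA7A remained called without any 1 sample, but not without control replicate 1 and knockdown replicate 3 together (edgeR's adjusted p 0.081). Its plexin receptor gene PLXNC1 was near silent, with 0.14 FPKM in the control and 0.127 FPKM in the knockdown group. Integrin genes were not silent. ITGB1 had 45.46 FPKM in the control and 50.01 FPKM in the knockdown group, and ITGA1 had 5.743 FPKM and 5.737 FPKM. Neither integrin gene was called. Which receptor SEMA7A acts through in these cells was not tested.

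Of the 7 secreted class 3 semaphorins, SEMA3C and SEMA3F were called higher and SEMA3B lower, SEMA3A and SEMA3G were not called, and SEMA3D and SEMA3E were not tested. SEMA3C (ENSG00000075223, chr7:80742538-80922359, minus strand) had 61.3, 52.9 and 53.5 CPM in the controls and 71.3, 70.3 and 63.8 CPM in the knockdown samples. The nearest values of the groups were control replicate 1 and knockdown replicate 3, and the log2 fold change was 0.29 (SE 0.06, edgeR's adjusted p 0.010). SEMA3F (ENSG00000001617, chr3:50155045-50189075, plus strand), a ligand that acts mainly through neuropilin-2, had 50.4, 43.9 and 46.8 CPM in the controls and 56.5, 52.9 and 52.3 CPM in the knockdown samples. The groups did not overlap, and the log2 fold change was 0.20 (SE 0.06, edgeR's adjusted p 0.032). SEMA3B (ENSG00000012171, chr3:50267558-50277546, plus strand), which has been described as a tumour suppressor in lung cancer, had 59.4, 62.3 and 62.02 CPM in the controls and 52.03, 52.98 and 57.6 CPM in the knockdown samples. Knockdown replicate 3 lay close to control replicate 1, and the log2 fold change was -0.18 (SE 0.05, edgeR's adjusted p 0.025).

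SEMA3F and SEMA3B lie 78482 bases apart on chromosome 3 in the same orientation and were called in opposite directions, but neither call held in every fit that left out 1 sample. SEMA3F was called without control replicate 1 but not without any 1 of the other 5 samples, where edgeR's adjusted p was between 0.0506 and 0.118. SEMA3B was called without control replicate 1 or knockdown replicate 3 but not without any 1 of the other 4 samples, where edgeR's adjusted p was between 0.0827 and 0.109. In the 6 fits the log2 fold change lay between 0.15 and 0.25 for SEMA3F and between -0.22 and -0.15 for SEMA3B. SEMA3B was also not called with library size alone, without a filter or on FPKM values, and SEMA3F was not called without a filter or by limma on all genes with an FPKM above 0. An antisense gene overlaps SEMA3F, at 1.91 CPM in the control group against 47.0 CPM of SEMA3F.

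SEMA4B, the most abundant semaphorin, was not called. It had 119, 125 and 131 CPM in the controls and 126, 131 and 127 CPM in the knockdown samples, with a log2 fold change of 0.04 (SE 0.04). The other 9 tested semaphorins had means of at most 0.523 FPKM in either group, and their log2 fold changes lay between -0.78 for SEMA6A (SE 0.46) and 0.39 for SEMA6C (SE 0.24). SEMA6B was the most abundant of class 6 (0.453 FPKM in the control and 0.51 FPKM in the knockdown group), and SEMA5A of class 5 (0.01 FPKM and 0.0133 FPKM). SEMA5B was not detected above 3 counts in any sample, and SEMA3D, SEMA3E, SEMA4A and SEMA6D were not tested. The summed FPKM of the 20 semaphorins was 51.9, 50.4 and 52.0 in the controls and 58.4, 58.7 and 57.8 in the knockdown samples, which did not overlap (exact permutation p = 0.1).

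Among the 9 plexins, PLXNB2 was called higher and PLXNA1 and PLXNB1 lower. PLXNB2 (ENSG00000196576, chr22:50274979-50307646, minus strand), a receptor for SEMA4C, had 127, 128 and 131 CPM in the controls and 158, 142 and 144 CPM in the knockdown samples. The control samples were close together and every knockdown sample was higher, replicate 1 most of all. The log2 fold change was 0.20 (SE 0.04, edgeR's adjusted p 0.0095), a mean level 15.2% higher.

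PLXNA1 (ENSG00000114554, chr3:126988594-127037392, plus strand), a partner of the neuropilins in the class 3 semaphorin receptor, had 93.4, 88.5 and 93.9 CPM in the controls and 77.6, 78.9 and 76.2 CPM in the knockdown samples. The groups were well apart, and the log2 fold change was -0.25 (SE 0.04, edgeR's adjusted p 0.0015). PLXNB1 (ENSG00000164050, chr3:48403854-48430086, minus strand), the receptor for SEMA4D, had 24.6, 24.4 and 25.3 CPM in the controls and 20.9, 20.6 and 21.9 CPM in the knockdown samples. Every knockdown sample was lower, and the log2 fold change was -0.23 (SE 0.07, edgeR's adjusted p 0.032). PLXNB1 was called without knockdown replicate 3 but not without any 1 of the other 5 samples, where edgeR's adjusted p was between 0.0605 and 0.104, nor with library size alone or on FPKM values.

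The other plexins were not called by edgeR. PLXND1, the receptor for SEMA3E, had 91.4, 92.6 and 85.4 CPM in the controls and 90.6, 87.4 and 88.0 CPM in the knockdown samples, with a log2 fold change of -0.02 (SE 0.04). PLXNA2 (log2 fold change 0.25, SE 0.09, edgeR's adjusted p 0.072) and PLXNA3 (log2 fold change -0.24, SE 0.08, edgeR's adjusted p 0.071) did not overlap between groups and missed the threshold in edgeR, while DESeq2 called PLXNA3 lower (adjusted p 0.029). PLXNA3 shares its locus with the antisense-oriented gene LAGE3, which had 23.7 CPM in the control group, where PLXNA3 had 23.5 CPM, and which was called higher. PLXNB3 and PLXNC1 were below 0.4 FPKM in both groups, and PLXNA4 was not tested. The groups overlapped for PLXNB3 (log2 fold change 0.56, SE 0.25, edgeR's adjusted p 0.14) and for PLXNC1 (-0.22, SE 0.23). The summed FPKM of the plexins was 35.6, 35.6 and 35.2 in the controls and 39, 36.8 and 36.5 in the knockdown samples, which did not overlap, but they overlapped once the FPKM values were divided by the TMM factors (mean 36.2 in the control and 36.7 in the knockdown group).

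**Figure D3:**
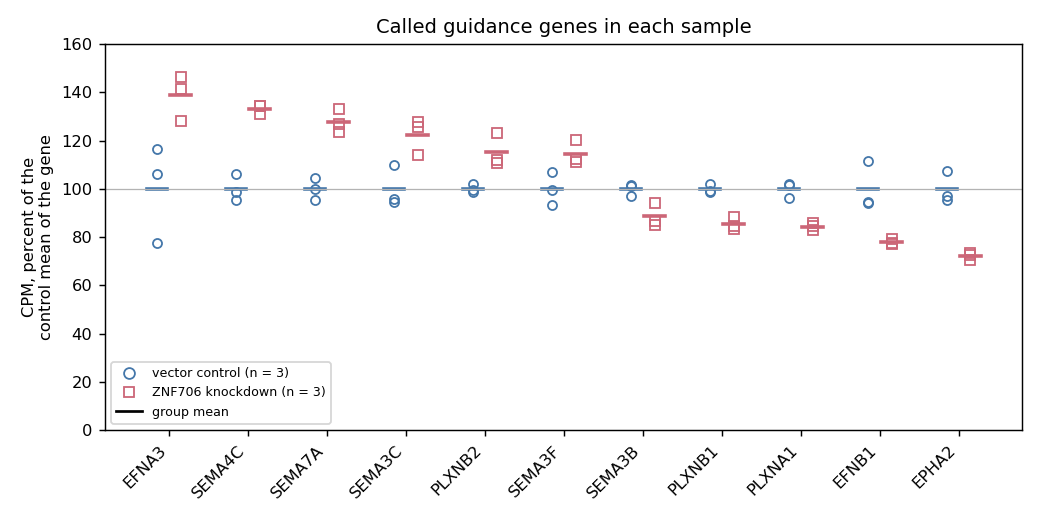
CPM of the 11 called guidance genes in each sample, as a percentage of the control mean of the same gene. Circles are control and squares knockdown samples (n = 3 each), lines are group means. The groups do not overlap for any of the 11 genes, from EFNA3 with the largest rise to EPHA2 with the largest fall.

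The neuropilins were low and not called by edgeR. NRP1 had 22.7, 20.8 and 18.0 CPM in the controls and 16.4, 18.0 and 16.4 CPM in the knockdown samples, so that control replicate 3 and knockdown replicate 2 met. Its log2 fold change was -0.28 (SE 0.10, edgeR's adjusted p 0.069), and DESeq2 called it lower (adjusted p 0.024). NRP2 had 0.58 FPKM in the control and 0.607 FPKM in the knockdown group, with a log2 fold change of 0.02 (SE 0.17). The FPKM of SEMA3B, SEMA3C and SEMA3F, between 7.90 and 9.14 in the control group, thus exceeded that of either neuropilin.

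Ratios of genes within the same library do not depend on how libraries are scaled. 5 ratios of a ligand to a receptor or of related genes were computed, on pairs chosen after the values were seen, so they describe these samples and add no evidence to the calls above. The FPKM of EFNA1 per FPKM of EPHA2 was 1.10, 1.27 and 1.03 in the controls and 1.65, 1.64 and 1.80 in the knockdown samples, or 1.13 ± 0.121 and 1.70 ± 0.0905 (SD, n = 3). The ratio of SEMA4C to PLXNB2 was 0.311, 0.318 and 0.335 in the controls and 0.342, 0.391 and 0.386 in the knockdown samples.

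Within the plexins, the ratio of PLXNB2 to PLXNB1 was 6.94, 7.06 and 6.98 in the controls and 10.2, 9.29 and 8.88 in the knockdown samples. The ratio of PLXNB2 to PLXNA1 was 2.103 ± 0.0674 in the control and 2.87 ± 0.176 in the knockdown group (SD, n = 3). The ratio of SEMA3F to SEMA3B was 0.920 ± 0.0872 in the control and 1.19 ± 0.106 in the knockdown group (SD, n = 3). None of the 5 ratios overlapped between groups, and each exact permutation test gave p = 0.1, the smallest value possible here.

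**Figure D4:**
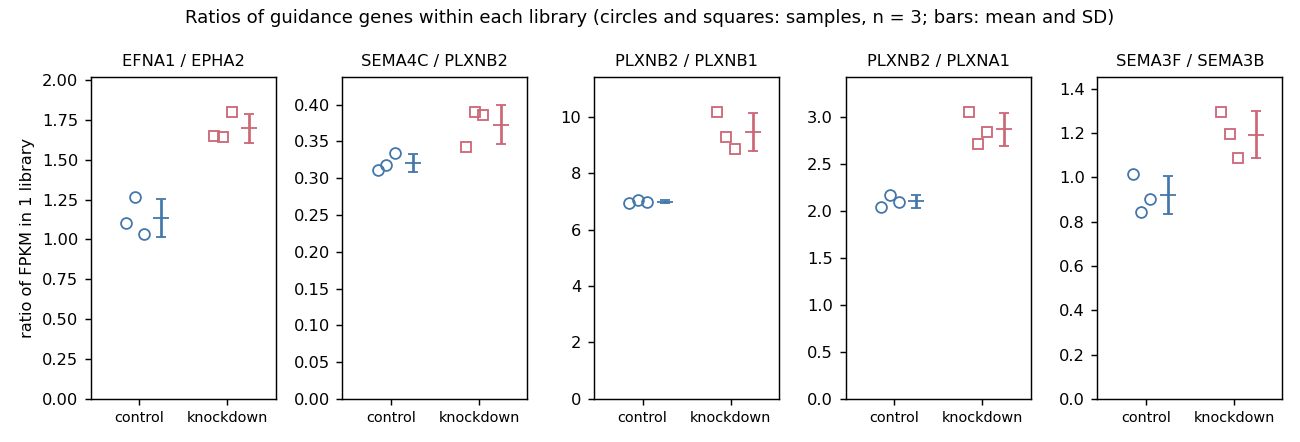
Ratios of the FPKM values of gene pairs within each library, with axes from 0. Circles are control and squares knockdown samples (n = 3 each), and bars give the mean and SD. All 3 knockdown samples lie above all 3 control samples in each panel.

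The pathway around the Eph receptors was examined through 43 genes for their signalling partners, of which 37 were tested. In the knockdown group 7 rose and 7 fell (37.8% called, beside 22.8% of all genes tested), and the median of the log2 fold changes of the tested genes was -0.02. In this list 31 genes had a mean of at least 1 FPKM, a level at which 32.8% of all tested genes were called. DESeq2 called 8 higher and 11 lower, in a fit that called 2271 of 18390 genes higher and 2654 lower. NGEF, which encodes ephexin-1, an exchange factor bound by EphA receptors, had 96, 129 and 120 counts in the controls and 278, 322 and 316 counts in the knockdown samples. Its log2 fold change was 1.26 (SE 0.17, edgeR's adjusted p 0.00087). ARHGEF19, a relative of NGEF, and CHN1, a Rac-inactivating protein downstream of Eph receptors, had log2 fold changes of 0.35 (SE 0.05) and 0.37 (SE 0.04). Among the called genes of the list the largest falls were in ABL2, a cytoplasmic tyrosine kinase (-0.41, SE 0.05), CBL, a ubiquitin ligase for activated receptors (-0.32, SE 0.05), and NCK1, an adaptor (-0.28, SE 0.04). The small GTPase RAC1, named after its values were seen, was the most abundant called gene of the list, at 95.2 FPKM in the control and 84.3 FPKM in the knockdown group (log2 fold change -0.23, SE 0.04).

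Of 40 partners of semaphorins and plexins, 35 were tested. In the knockdown group 8 rose (22.9%, beside 10.4% of all genes tested) and 4 fell (11.4%, beside 12.4%), and the median of the log2 fold changes of the tested genes was 0.09. At least 1 FPKM was the mean of 26 genes of this list, a level at which 13.5% of all tested genes were called higher and 19.3% lower. ERBB2, a receptor tyrosine kinase that associates with plexin-B receptors, had 1580, 1561 and 1523 counts in the controls and 2683, 2431 and 2560 counts in the knockdown samples. Its log2 fold change was 0.57 (SE 0.06, edgeR's adjusted p 0.00017). LIMK2, a kinase that inactivates cofilin, had a log2 fold change of 0.39 (SE 0.10) and CDK5, a kinase in semaphorin signalling, one of 0.37 (SE 0.10). The called genes that fell most were FARP1, an exchange factor linked to A-class plexins (-0.81, SE 0.13), RND3, a plexin-binding small GTPase (-0.40, SE 0.06), and RAP1A, a GTPase of the kind that plexins inactivate (-0.30, SE 0.05). FARP1 and RAP1A stayed called without any 1 sample, but not by limma on all genes with an FPKM above 0. CDK5 was not called without a filter on low counts. The call of LIMK2 was lost without control replicate 3 or knockdown replicate 2 (edgeR's adjusted p 0.0584 and 0.0751), and that of CDK5 without control replicate 2 or 3 or knockdown replicate 2 or 3 (edgeR's adjusted p between 0.0707 and 0.0776). These counts depended on the libraries and settings. The number called higher was 4 without control replicate 3 or knockdown replicate 2, and 5 without control replicate 2, without knockdown replicate 3, without control replicate 1 and knockdown replicate 3 together, or without a filter on low counts. It was 12 with library size alone, where 3 were lower, in a fit that called 2742 of 18390 genes higher and 1518 lower. Limma on genes of at least 1 FPKM, which left out FARP1, called 11 higher and 2 lower. Over all genes the number called higher also fell without knockdown replicate 2 or without a filter, as given below. It fell too without control replicate 1 and knockdown replicate 3 together. L1CAM, an adhesion molecule in the SEMA3A receptor complex and named after its values were seen, went from 59.3 FPKM to 78.4 FPKM (log2 fold change 0.36, SE 0.03).

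Of 29 netrin, slit and repulsive guidance genes, 18 were tested, and 3 rose and 1 fell in the knockdown group (22.2% called, beside 22.8% of all genes tested, with a median of the log2 fold changes of 0.04). Only 1 was called higher without any 1 sample other than knockdown replicate 3, and limma on all genes with an FPKM above 0 called 1 higher and 0 lower. The number of all genes called higher fell as well without knockdown replicate 2, as given below. NTN4, which encodes the secreted netrin-4, had 848, 787 and 806 counts in the controls and 1559, 1485 and 1453 counts in the knockdown samples (log2 fold change 0.73, SE 0.08). SLIT2, a secreted ligand of ROBO receptors, had 337, 298 and 365 counts in the controls and 232, 169 and 197 counts in the knockdown samples (log2 fold change -0.89, SE 0.16). The calls of FLRT2, an adhesion molecule that binds UNC5 receptors (0.98, SE 0.28), and SRGAP1, which acts downstream of ROBO receptors (0.21, SE 0.06), held without knockdown replicate 3 only. Without any 1 of the other 5 samples edgeR's adjusted p was between 0.0607 and 0.122 for FLRT2 and between 0.0536 and 0.0915 for SRGAP1.

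Of 8 vascular endothelial growth factors and receptors, which share the neuropilins with class 3 semaphorins, 5 were tested and VEGFB alone was called (20% of those tested, beside 22.8% of all genes tested), with a log2 fold change of 0.20 (SE 0.06). Its call was kept without control replicate 2 but lost without any 1 of the other 5 samples (edgeR's adjusted p between 0.0573 and 0.116) and without a filter on low counts. Of the 5 tested genes, 3 had a log2 fold change above 0 and 2 below. VEGFA had 260 CPM in the control and 242 CPM in the knockdown group, and the groups did not overlap. Its log2 fold change of -0.11 (SE 0.04) was not called (edgeR's adjusted p 0.075). DESeq2 also called 1 gene of this list lower.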

How the data were processed

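Per the labels and the study's methods, total RNA was sequenced on an Illumina NovaSeq instrument, and the authors trimmed reads with cutadapt 1.9, checked them with FastQC and mapped them to the human genome (GRCh38) with HISAT2. The deposited table holds counts per gene, whole numbers without normalization, and FPKM values, which the authors divided by gene length and library size. The counting program, its strand handling and the annotation release are not given in the sources used here. In the analysis, low counts were removed by filterByExpr, TMM factors were applied, and the quasi-likelihood test of edgeR 4.0.16 (glmQLFit, then glmQLFTest; R 4.3.3) was run with group as the only term and Benjamini-Hochberg adjustment over 18390 genes. The SE of a log2 fold change is its size over the root of F. The fit was tested on simulated data. The study used DESeq2, which served as an alternative (version 1.42.0), as did limma 3.58.1 on log2 FPKM. Exact permutation tests were two-sided. Positions are those of the deposited table, and all 52 members overlapped their position in GENCODE release 29.

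The members, the lists of related genes and the cell type markers were chosen with earlier results of these data known. The genes named are ZNF706, every called member, the most abundant member of each family or semaphorin class, and up to 3 called genes per list and direction with the largest absolute log2 fold change. Uncalled members are given by range or with their values, and other names were chosen after their values were seen. The lists held 9 genes not analysed here. Floors of 3 counts cover counting error only, whereas the SDs and SEs also hold the spread between samples. Some results for genes of the lists are not reported here.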

Additional observations from a re-analysis of the deposited data

How the results depend on the processing

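Of the 11 called members, 6 (EPHA2, SEMA3C, SEMA4C, SEMA7A, PLXNA1 and PLXNB2) stayed called in all 6 fits that left out 1 sample and in all 9 other planned fits, and 0 of the 11 changed sign in any fit. The counts of 6 higher and 5 lower members became 6 and 7 with DESeq2, 6 and 5 with its size factors in edgeR, 4 and 4 without a filter, and 7 and 5 at a mean count of at least 50. The lower count was 3 with library size alone, 3 with limma on log2(FPKM + 0.1) and 3 on log2(FPKM + 1) at a mean of at least 1 FPKM, 2 with limma for any FPKM above 0, 2 (with 4 higher) at an unadjusted p below 0.05 with a log2 change of 0.3 or more in size, and 3 without control replicate 1 and knockdown replicate 3, an alternative chosen after seeing the data. Leaving out 1 sample gave 4 to 6 higher and 2 to 4 lower members from fewer samples. The calls over all genes changed with the setting too, as given below for some of these fits. The member counts alone therefore do not show that the members moved differently from other genes. Counts over all genes are not given here for a mean count of at least 50 or for the unadjusted p.

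The median log2 fold change of the tested members, -0.018, was 0.035 with library size alone, 0.022 without a filter, 0.031, 0.028 and 0.031 with the 3 limma fits, and between -0.031 and 0.020 when 1 sample was left out, so its sign depended on the setting. Over all genes, 1906 were higher and 2286 lower, against 2742 and 1518 with library size alone, 1253 and 1737 without a filter, 2279 and 1539 with limma at a mean of at least 1 FPKM, 1148 and 1500 without knockdown replicate 2, and 1189 and 1631 without both samples named above. The cause was not tested.

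The sample titles share replicate numbers. The deviations of same-numbered samples from their group means correlated at 0.040, -0.014 and 0.046, and not every sample correlated best with its own number. No strong pairing by number was seen, but such weak correlations cannot show that same-numbered samples were handled apart. With the number as a replicate block 6 members were higher and 5 lower, the median was -0.018, and all 11 calls were kept. In the 20 tested members below 1 FPKM the median SE was 0.25 on the log2 scale, with a range from 0.09 to 1.35. Whether depth set these SEs was not tested.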

Other observations

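Several members overlap another gene of the table on the opposite strand, and their counts cannot be told apart from those of the partner where strand was not used. SEMA4G (1.68 CPM in the control group) overlaps MRPL43 (48.5 CPM), PLXNC1 (1.66 CPM) overlaps CEP83, which was called lower (19.8 CPM in the control and 15.3 CPM in the knockdown group), and EPHB4 (73.3 CPM) overlaps SLC12A9 (14.1 CPM). PLXNB3 (1.85 CPM) overlaps SRPK3 (0.923 CPM) on the same strand, which strand-specific counting would not separate either.

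The share of the semaphorin transcripts taken by single members differed between the groups. Of the summed FPKM of the 20 semaphorins, SEMA3B took 17.8% ± 0.613 in the control and 14.4% ± 0.879 in the knockdown group, and SEMA4C took 9.50% ± 0.419 and 11.6% ± 0.215 (SD, n = 3). Of the summed FPKM of the plexins, PLXNB2 took 42.9% ± 0.624 and 48.4% ± 1.11, and PLXNA1 took 20.4% ± 0.712 and 16.9% ± 0.641 (SD, n = 3). These shares come from the samples that gave the calls and are no separate evidence for them.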
